A study of Mus musculus with 27 samples.

Results

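Liver RNA of 7 mice on an intermittent diet (INT) was compared with liver RNA of 6 mice under calorie restriction (CR). These 13 mice were taken by the diet in their labels from 27 mice, of which 7 others received a control diet (C) and 7 a medium-fat diet (MF). All were male C57BL/6J mice that arrived at 7 weeks of age, acclimatized for 2 weeks, started their diets at 9 weeks and were killed at 12 months. CR-fed mice received AIN-93W-CR in portions set at 30% below the energy intake of C-fed mice, given daily in the afternoon. INT-fed mice alternated between 2 kinds of week. In 1 they ate AIN-93W-MF ad libitum, with 25% of its energy from fat. In the other their portions were set at 40% below the energy intake of C-fed mice. They were killed in an ad libitum week. C-fed mice ate AIN-93W and MF-fed mice AIN-93W-MF, both ad libitum. Every mouse fasted for 4 h, received a gavage of 0.5% carboxymethyl cellulose without a drug, and fasted for another 6 h before it was killed in the afternoon. The study also measured a higher total energy intake and a higher body weight in INT- than in CR-fed mice. INT and CR thus differed at once in dietary fat, in the amount eaten in the last week and in total, in the feeding schedule and in body weight. The comparison cannot tell these apart.

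The liver releases glucose and burns fatty acids when food is scarce, and stores glycogen and builds fatty acids when it is plentiful, largely under the control of insulin, glucagon and the nuclear receptor PPARα. In male mice, growth hormone arrives in pulses that switch on male-biased liver genes through STAT proteins and hold down female-biased ones, many of which act on steroids, drugs and pheromones. The liver clock also follows feeding time. Lists of genes for these processes and for cell types were compared between the 2 diets.

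Each mouse had 1 Affymetrix Mouse Gene 1.1 ST array, and values are log2 intensities of probe sets after robust multiarray averaging by the authors. Of 18820 genes, each taken at its probe set of highest mean, 13603 had an intensity above 20 (4.32 on the log2 scale) on at least 5 of the 27 arrays and were tested. Differences are INT minus CR on the log2 scale with the standard error (SE) of limma's fit to all 27 arrays, and calls were made where p, adjusted by the Benjamini-Hochberg method over all tested genes, was under 0.05. Pearson's r between the 13 arrays lay between 0.984 and 0.992, and no array was far from the rest. Arrays of replicates 1 to 4 (4 INT and 4 CR) had a mean interquartile range of 3.63, against 3.72 for replicates 5 to 7 (3 INT and 2 CR). Whether these sets mark a batch is not stated, and values within each set are given below. Hepatocyte markers were high in every mouse. The 11 hepatocyte markers averaged between 12.67 and 12.80 log2 units in INT-fed and between 12.83 and 12.90 in CR-fed mice. Of these, Tat (-0.52), Cps1 (-0.32) and Trf (-0.12) were lower in INT-fed mice. The ranges of the list did not overlap, and its part in the differences below was not tested. Trf lost its call without INT replicate 6 or 7 or CR replicate 4 or 6 (adjusted p up to 0.0939, limma). In whole liver, fewer cells of a type and less RNA per cell cannot be told apart.

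The livers of INT- and CR-fed mice differed widely. Among the genes far higher in INT-fed mice were Hsd3b5, a steroid dehydrogenase of male liver, and the fatty acid hydroxylase Cyp4a12a, and among those far lower Cyp2b13, a cytochrome P450 of female liver. Beside them stood genes of fatty acid synthesis (Acly, Fasn, Pnpla3), a coactivator gene of glucose production (Ppargc1a) and genes of hormone signalling (Igfbp1, Lepr), all lower in INT-fed mice. Genes of the terminal complement pathway (C6, C8a) and the PPARα target Vnn1 were higher. In total limma called 2039 of 13603 genes (15%), with 1138 (8.37%) higher and 901 (6.62%) lower in INT-fed mice. These shares are the background for the list counts below. The split depended on the scaling: median centring gave 982 genes higher and 1080 lower, and cyclic loess 1052 and 1046. Differences were mostly small: the median size was 0.11 over all tested genes and 0.37 over the called ones. At least 2-fold differences were found in 77 genes higher and 70 lower (147 in all, 1.08%). In 818 called genes (6.01%) every INT-fed mouse lay above, or every one below, all CR-fed mice, 467 of them higher and 351 lower in INT-fed mice. With a single INT- or CR-fed mouse left out, limma called between 1674 and 2069 genes. Replicates 1 to 4 alone gave 1038 (627 higher, 411 lower), and replicates 5 to 7 alone gave 347 (148 higher, 199 lower).

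**Figure D1:**
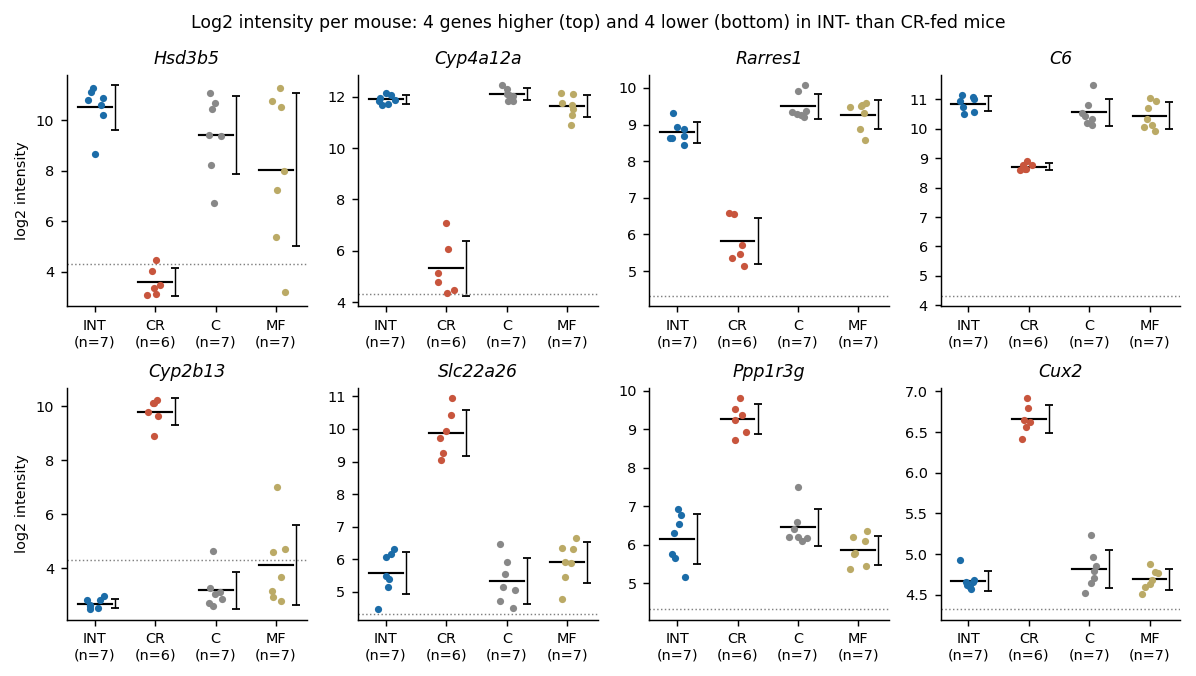
Log2 intensity (y axis) of 8 genes in every mouse by diet (x axis), where points are mice, horizontal bars means, error bars SD and the dotted line the intensity of 20. Hsd3b5, Cyp4a12a, Rarres1 and C6 were higher and Cyp2b13, Slc22a26, Ppp1r3g and Cux2 lower in all 7 INT-fed than in all 6 CR-fed mice.

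The 15 genes of largest difference upward had log2 differences from 2.14 to 6.91 and hold steroid, fatty acid and drug-metabolizing enzymes beside major urinary and complement proteins. Hsd3b5 lay between 8.67 and 11.28 (median 10.81) in INT-fed and between 3.08 and 4.46 (median 3.43) in CR-fed mice. Cyp4a12a, a fatty acid hydroxylase, lay between 11.66 and 12.14 (median 11.88) in INT-fed and between 4.34 and 7.09 (median 4.95) in CR-fed mice. No INT-fed mouse came within 4 log2 units of a CR-fed mouse for either gene. The organic anion transporter Slco1a1 lay between 10.97 and 11.33 (median 11.22) in INT-fed and between 4.24 and 7.44 (median 5.45) in CR-fed mice, a difference of 5.47 (SE 0.54, adjusted p = 4.21e-08, limma). Rarres1, a gene induced by retinoic acid, lay between 8.44 and 9.33 (median 8.68) in INT-fed and between 5.14 and 6.60 (median 5.59) in CR-fed mice, a difference of 2.98 (SE 0.22). The ranges were apart in both genes, and CR-fed mice spread more than INT-fed mice in Slco1a1. Sult2a8, a sulfotransferase, stood at 2.40 (SE 0.29), Cyp7b1, a hydroxylase of oxysterols, at 2.36 (SE 0.29), the sodium-calcium exchanger gene Slc8a1 at 2.89 (SE 0.44), though at -0.02 in its other, dimmer probe set, Susd4, a complement regulator, at 3.66 (SE 0.33), and the fatty acid elongase Elovl3 at 3.43 (SE 0.36). The others were Cyp4a12b (6.31), the pseudogenes Serpina4-ps1 (5.83) and Adh6-ps1 (2.32), and the major urinary protein genes Mup6 (3.91) and Mup21 (2.50). Cyp4a12a and Cyp4a12b, and the Mup genes, are near-identical copies that probe sets may not separate. Hsd3b5 was under the intensity of 20 in 5 of 6 CR-fed mice, so the size of its difference, and its order against Cyp4a12a and Cyp4a12b, is uncertain.

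Among the 15 genes of largest difference downward, log2 differences ran from -1.99 to -7.10. Cyp2b13 lay between 2.50 and 2.97 (median 2.64) in INT-fed and between 8.90 and 10.23 (median 9.96) in CR-fed mice, and no INT-fed mouse (0 of 7) reached the intensity of 20. Its near-identical relative Cyp2b9 lay between 4.69 and 9.59 (median 9.05) in INT-fed and between 12.33 and 12.75 (median 12.60) in CR-fed mice, with a wide spread in INT-fed mice (SD 2.08, against 0.14 in CR-fed mice). Both genes kept their ranges apart. Cux2, a transcription factor of female liver, had the smallest p among genes lower in INT-fed mice (difference -1.99, SE 0.09, adjusted p = 7.28e-15, limma) and lay between 4.57 and 4.93 (median 4.66) in INT-fed and between 6.41 and 6.92 (median 6.64) in CR-fed mice. Ppp1r3g, which brings a phosphatase to glycogen, lay between 5.16 and 6.94 (median 6.29) in INT-fed and between 8.73 and 9.80 (median 9.31) in CR-fed mice, a difference of -3.11 (SE 0.25). Slc2a4, the glucose transporter that insulin moves to the surface of muscle and fat cells, lay between 4.48 and 5.28 (median 4.70) in INT-fed and between 6.16 and 7.42 (median 6.92) in CR-fed mice, a difference of -2.04 (SE 0.19). The ranges of these 3 genes were apart, and Cux2 varied least within each diet. The organic ion transporters Slc22a26 (-4.30) and Slc22a27 (-3.82), which are close in sequence, the P450 genes Cyp2b10 (-3.49) and Cyp2a22 (-2.51) and the flavin monooxygenase Fmo2 (-2.09) were lower too. So were Acmsd (-2.14), whose enzyme draws tryptophan breakdown away from NAD, the oxidase Hao2 (-2.21, under 20 in 7 of 7 INT-fed mice), the vesicle protein gene Sytl5 (-2.96), the nicotinic receptor subunit Chrna4 (-2.71) and Nipal1 (-2.33).

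Shown are the promoters of 4 genes with large differences, picked among those that held a short motif searched for. They run from 250 bases before to 50 after the start of each gene (RefSeq, GRCm38.p6, written 5′ to 3′ on the gene's strand). Capitals mark the motif letters. In Hsd3b5 (chr3:98645485-98645784, minus strand) and C6 (chr15:4726960-4727259, plus strand) they mark TTATNTAA, called a D-box here. N stands for any base, so this pattern is looser than the site of clock-controlled PAR bZIP factors, and a match need not be such a site. In C8a (chr4:104876349-104876648, minus strand) they mark a STAT core, TTCNNNGAA. In Slc22a26 (chr19:7802618-7802917, minus strand) they mark a STAT core and a D-box.
Hsd3b5: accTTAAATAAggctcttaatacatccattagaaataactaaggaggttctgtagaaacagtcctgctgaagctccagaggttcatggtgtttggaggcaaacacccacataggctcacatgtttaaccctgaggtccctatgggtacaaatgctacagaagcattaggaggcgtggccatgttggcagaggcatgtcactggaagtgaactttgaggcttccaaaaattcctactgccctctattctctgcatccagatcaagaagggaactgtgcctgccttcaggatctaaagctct
C6: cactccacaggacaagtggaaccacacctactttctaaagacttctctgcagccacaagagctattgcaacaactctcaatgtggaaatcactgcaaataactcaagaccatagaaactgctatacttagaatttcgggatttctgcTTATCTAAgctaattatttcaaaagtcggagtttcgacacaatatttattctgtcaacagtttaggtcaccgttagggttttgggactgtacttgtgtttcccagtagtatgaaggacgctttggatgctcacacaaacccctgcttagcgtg
C8a: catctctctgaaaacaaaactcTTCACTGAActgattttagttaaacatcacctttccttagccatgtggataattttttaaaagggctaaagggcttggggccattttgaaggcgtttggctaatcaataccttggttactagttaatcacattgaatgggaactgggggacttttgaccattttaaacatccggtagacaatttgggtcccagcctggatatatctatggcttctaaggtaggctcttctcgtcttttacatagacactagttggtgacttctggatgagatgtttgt
Slc22a26: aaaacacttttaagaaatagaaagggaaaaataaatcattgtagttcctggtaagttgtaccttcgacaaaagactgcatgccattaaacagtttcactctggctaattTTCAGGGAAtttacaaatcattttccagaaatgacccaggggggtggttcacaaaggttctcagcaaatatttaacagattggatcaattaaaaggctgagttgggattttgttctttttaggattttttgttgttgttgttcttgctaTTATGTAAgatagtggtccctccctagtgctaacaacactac
Both strands were searched, so the letters can stand reversed and complemented, and motifs could overlap. Of all 27025 genes whose promoters were searched, 9.55% held a STAT core and 4.07% a D-box, and of the 10747 tested genes among them 8.27% and 2.32%. For the called genes higher in INT-fed mice the shares were 8.32% and 1.92% of 938, and for those lower 9.12% and 2.81% of 713. A D-box stood in 3 of 16 male-biased and 3 of 15 female-biased genes with a promoter, and a STAT core in 0 and 2. Of the 15 genes of largest difference upward, 9 had a promoter, of which 2 held a D-box and 0 a STAT core. Of the 15 downward, 14 had a promoter, of which 1 held a D-box and 2 a STAT core. The palindromic CRE, TGACGTCA, was found in 2.77% and 2.95% of the genes called higher and lower. Both shares lay below the 3.28% of the tested genes, while 2.03% of all genes held it. DR1, a pair of AGGTCA copies in the same direction 1 base apart, was found in none of the called genes and in 13 of all. A match describes letters and says nothing of binding.

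Genes that male liver expresses above female liver were higher in INT-fed mice, and genes of the opposite bias were lower. Of 24 male-biased genes listed, 22 were tested, and 21 were higher and 0 lower, with a median difference of 1.64. Beyond the genes above they included the odorant-binding Obp2a (1.88, SE 0.46), the acetyltransferase Nat8 (1.68, SE 0.16), the P450 genes Cyp2u1 (1.60) and Cyp2d9 (1.42), the glucuronosyltransferase Ugt2b1 (0.62) and the growth factor receptor Egfr (0.75). Their mean log2 intensity was lowest at 10.46, with a median of 10.74 and a maximum of 10.89, in INT-fed mice, and ran from 7.97 to 8.76 (median 8.30) in CR-fed mice. The median of their differences was 1.71 within replicates 1 to 4 and 1.51 within replicates 5 to 7. Of 19 female-biased genes tested, 12 were lower and 0 higher, with a median of -1.09. Besides Cyp2b13, Cyp2b9, Cyp2b10, Slc22a26, Slc22a27, Cux2, Fmo2 and Hao2 these were the lipoprotein receptor Vldlr (-0.94), Cyp2c38 (-1.36), Cyp39a1 (-1.09) and Sult1a1 (-0.25). Over these 19 genes the mice averaged 6.27 to 7.08 under INT and 8.45 to 8.65 under CR. Both lists thus had ranges that did not overlap between the diets. Among 8 major urinary and lipocalin genes, 6 were higher, and 4 of these are also in the male-biased list. All mice were male, and no female liver was measured. Of all tested genes 8.37% were called higher and 6.62% lower. Members of both sex-biased lists were chosen with earlier results of these data known, and how far this raised their counts was not tested.

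In the lists of growth hormone and IGF genes and of insulin signalling genes, 7 of 23 and 6 of 25 were called, beside 15% of all tested genes, and the largest differences were in a binding protein and a receptor. Igfbp1, which binds insulin-like growth factors and falls with insulin, lay between 8.38 and 9.75 (median 8.98) in INT-fed and between 10.62 and 11.57 (median 10.91) in CR-fed mice. Lepr, the leptin receptor gene, lay between 7.42 and 8.61 (median 8.06) in INT-fed and between 9.19 and 10.48 (median 9.63) in CR-fed mice. Both were lower in every INT-fed mouse than in any CR-fed mouse, with differences of -1.97 (SE 0.35, adjusted p = 0.000218, limma) and -1.64 (SE 0.25, adjusted p = 3.02e-05, limma). Of 23 growth hormone and IGF genes tested, 5 were higher: the repressor Bcl6 (1.27), Egfr (0.75), Igfals (0.55), which stabilizes IGF in blood, Stat5a (0.50) and the growth hormone receptor Ghr (0.28). Bcl6 lost its call without INT replicate 1, 2, 4, 5, 6 or 7 or CR replicate 1 or 3 (adjusted p up to 0.122, limma). Among 25 insulin signalling genes, the receptor substrate Irs2 (-0.72, SE 0.18) and the mTOR inhibitors Tsc1 (-0.45, SE 0.07) and Sesn2 (-0.35) were lower. Grb14, an inhibitor of the insulin receptor (0.41), Mtor (0.35) and Pik3r1 (0.29) were higher. Sesn2 lost its call without INT replicate 1, 3 or 6 or CR replicate 2 or 4 (adjusted p up to 0.0739, limma). The medians of the lists were 0.00 and -0.03, against 0.00 over all tested genes.

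In INT-fed mice, most tested genes that burn fatty acids were called higher and most that build them lower. Of 34 genes of fatty acid oxidation and ketogenesis, 19 were higher and 0 lower, with a median of 0.32 (0.30 within replicates 1 to 4 and 0.38 within 5 to 7). Of 29 genes of fatty acid and triglyceride synthesis, 17 were lower and 1 higher, with a median of -0.40 (-0.22 and -0.66). With any 1 mouse left out, between 14 and 21 of the former were called higher and between 15 and 18 of the latter lower. Both shares lay above the 8.37% higher and 6.62% lower among all genes.

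Vnn1, a pantetheinase known as a PPARα target, lay between 10.45 and 11.56 (median 11.06) in INT-fed and between 8.36 and 10.66 (median 9.40) in CR-fed mice, a difference of 1.65 (SE 0.30, adjusted p = 0.000334, limma). The highest CR-fed mouse lay above the lowest INT-fed mouse, so the diets overlapped. Smaller differences, with ranges apart, were found for the enoyl-CoA isomerase Eci2 (0.61, SE 0.07) and for Ppara itself (0.38, SE 0.08), which lay between 11.13 and 11.33 (median 11.22) in INT-fed and between 10.68 and 11.08 (median 10.83) in CR-fed mice. Entry of fatty acids into mitochondria was covered by Cpt1a (0.38), Slc25a20 (0.47) and Cpt2 (0.46), all higher. The same held for Slc27a2 (0.42), Fabp1 (0.36) and Creb3l3 (0.44), of fatty acid activation, binding and fasting response. Acot1, a thioesterase, stood at 1.16 (SE 0.36). Acot1 lost its call without INT replicate 1 or 4 or CR replicate 5 or 6 (adjusted p up to 0.0904, limma). Pdk4, a kinase that spares glucose in fasting, stood at -1.06 (SE 0.46, adjusted p = 0.129, limma) and Cyp4a14, a PPARα-induced hydroxylase, at -0.60 (SE 0.42, adjusted p = 0.376, limma), and neither was called. Without INT replicate 1, 1 of the 34 genes was called lower.

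Acly, which makes acetyl-CoA from citrate, lay between 9.31 and 10.79 (median 9.78) in INT-fed and between 11.30 and 12.07 (median 11.63) in CR-fed mice. Fasn, the fatty acid synthase, lay between 10.54 and 11.74 (median 10.96) in INT-fed and between 12.15 and 12.79 (median 12.41) in CR-fed mice. Pnpla3, a lipid droplet hydrolase that rises with lipogenesis, lay between 5.36 and 6.95 (median 6.11) in INT-fed and between 6.97 and 8.35 (median 7.82) in CR-fed mice. In these genes no INT-fed mouse reached the lowest CR-fed mouse, although the ranges of Pnpla3 nearly met, and the differences were -1.79 (SE 0.20), -1.46 (SE 0.15) and -1.70 (SE 0.22), with adjusted p of 3.72e-07, 1.32e-07 and 4.24e-06 (limma). Along the same pathway, Acaca (-1.26) and Acacb (-1.11), which make malonyl-CoA, Elovl6 (-1.36), which lengthens its products, and Pgd (-1.17) and Me1 (-1.01), which supply NADPH, were lower. Lower too were Acss2 (-0.92), Gpam (-0.85) and Lpin1 (-0.99), the last 2 of triglyceride assembly. The desaturase gene Scd1 differed little (-0.16), and the acyltransferase Agpat3 was the only member called higher (0.18), though not after median centring or cyclic loess. Scd1 lost its call without INT replicate 5 or 6 or CR replicate 3 or 4 (adjusted p up to 0.0888, limma). Agpat3 lost its call without INT replicate 1, 5 or 7 or CR replicate 3, 4 or 6 (adjusted p up to 0.113, limma). Averaged over the 29 genes, INT-fed mice lay between 10.27 and 10.85 and CR-fed mice between 10.96 and 11.29, apart from each other. The averages of the oxidation genes overlapped, at 10.51 to 11.21 and 10.23 to 10.65.

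**Figure D2:**
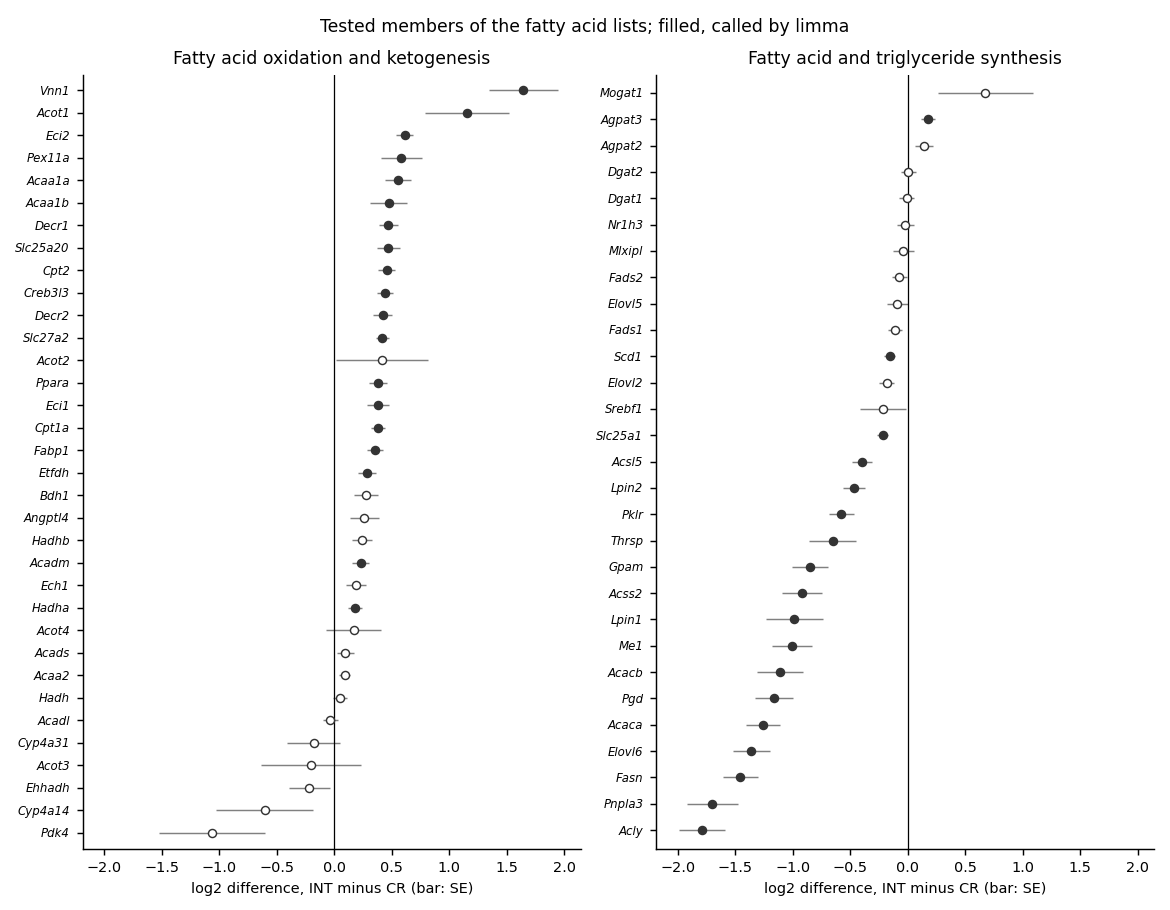
Log2 difference between INT- and CR-fed mice (x axis, with the SE of limma's fit) for each tested gene of the 2 fatty acid lists (y axis), where filled points were called. Most oxidation genes stand right of 0 (19 called, median 0.32) and most synthesis genes left of it (17 called lower, median -0.40).

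Genes of lipid droplets and lipid uptake were split. Fitm1, which acts when droplets form, lay between 9.52 and 10.65 (median 10.16) in INT-fed and between 7.80 and 8.87 (median 8.42) in CR-fed mice, a difference of 1.74 (SE 0.20, adjusted p = 7.6e-07, limma). Its ranges were apart. G0s2, which inhibits the lipase of droplets, stood at 1.12 (SE 0.26), with overlapping ranges. Of 23 tested genes, 6 were higher: Fitm1, G0s2, the lipases Mgll (0.75), Lipe (0.72) and Pnpla2 (0.36), and the droplet coat gene Plin2 (0.49). Vldlr (-0.94) was lower, with 1 more gene called lower without INT replicate 1. Cidec had the largest difference of the list but was not called (1.79, SE 0.63, adjusted p = 0.0537, limma). Cd36 was not called either (-1.01, SE 0.38, adjusted p = 0.072, limma). Plin2 lost its call without INT replicate 1 or CR replicate 6 (adjusted p up to 0.0541, limma). The list had a median of 0.01, and 30.4% of it was called, beside 15% of all tested genes.

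Of 25 genes of cholesterol synthesis and transport, 6 were lower and 1 higher in INT-fed mice, while 18 were not called (median -0.31). The called share was 28%, beside 15% of all tested genes. Averaged over the list, the mice overlapped, at 9.50 to 10.22 under INT and 9.86 to 10.49 under CR. Pmvk, a kinase of the mevalonate pathway, lay between 7.27 and 8.27 (median 7.37) in INT-fed and between 8.42 and 9.27 (median 8.97) in CR-fed mice, a difference of -1.39 (SE 0.17). Lss, which closes the sterol rings, lay between 8.03 and 9.26 (median 8.10) in INT-fed and between 8.92 and 10.17 (median 9.60) in CR-fed mice, a difference of -1.17 (SE 0.20). In both genes INT replicate 3 was the highest INT-fed mouse, and only in Lss did it reach the CR-fed mice. Insig1, the sterol sensor (-0.92), Dhcr7 (-0.68), Fdps (-0.67) and Sc5d (-0.47) were lower, and the transporter Abca1 (0.24) was higher. Abca1 lost its call without INT replicate 1 or 4 or CR replicate 1 or 3 (adjusted p up to 0.08, limma). Without INT replicate 3, 10 of the 25 genes were called lower. Within replicates 1 to 4 the median was -0.17 and within replicates 5 to 7 it was -0.54.

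Bile acid genes were called in both directions, with 9 of 28 higher and 5 lower. Cyp7b1, of the acidic route of bile acid synthesis, lay between 10.80 and 11.70 (median 11.40) in INT-fed and between 8.62 and 9.10 (median 8.93) in CR-fed mice. Slco1a4, an uptake transporter, lay between 8.33 and 8.75 (median 8.59) in INT-fed and between 10.01 and 10.70 (median 10.51) in CR-fed mice, and its difference of -1.86 (SE 0.20) was opposite to that of its relative Slco1a1. Each gene had ranges far apart. Slc51b (-1.62) and Abcc4 (-0.66), which export bile acids into blood, Cyp39a1 (-1.09) and Akr1d1 (-0.46) were lower as well, while the nuclear receptor Nr1h4 (0.36), Hsd3b7 (0.72) and Amacr (0.43) were higher. Of 18 apolipoprotein and lipoprotein genes, 11.1% were called, beside 15% of all tested genes. Tm6sf2, needed to load lipoproteins with fat, was lower (-0.70, SE 0.11) and the receptor Lrp1 higher (0.21, SE 0.06). Those counts of 1 became 2 higher without INT replicate 3, and 2 lower without INT replicate 7, CR replicate 5 or MF replicate 6.

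**Figure D3:**
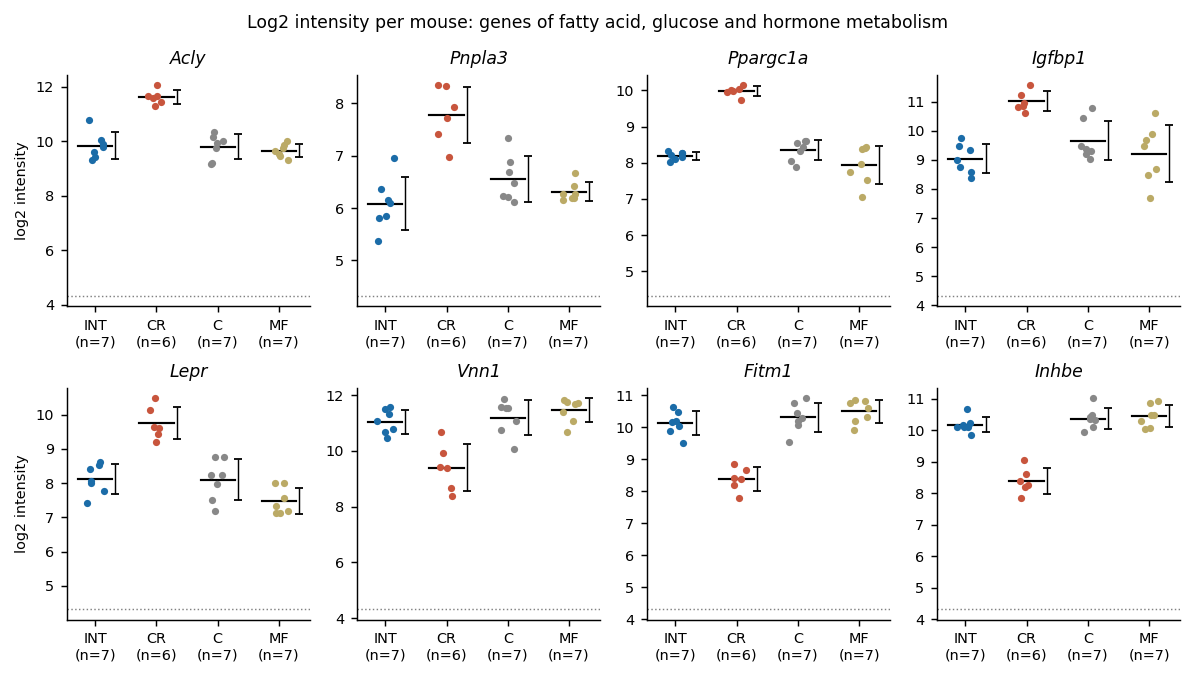
Log2 intensity (y axis) of 8 metabolic genes in every mouse by diet (x axis), where points are mice, horizontal bars means, error bars SD and the dotted line the intensity of 20. Acly, Pnpla3, Ppargc1a, Igfbp1 and Lepr were lower, and Fitm1 and Inhbe higher, in all 7 INT-fed than in all 6 CR-fed mice, while the ranges of Vnn1 overlapped.

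Ppargc1a, a coactivator that drives glucose production and mitochondrial genes in fasting, had the smallest p of the gluconeogenesis list. It lay between 8.01 and 8.33 (median 8.22) in INT-fed and between 9.74 and 10.15 (median 9.99) in CR-fed mice, a difference of -1.78 (SE 0.16, adjusted p = 1.58e-08, limma). Got1, an aminotransferase of the malate shuttle, lay between 11.07 and 12.18 (median 11.63) in INT-fed and between 12.65 and 12.97 (median 12.75) in CR-fed mice, a difference of -1.16 (SE 0.17). Neither gene overlapped between the diets. Of 21 gluconeogenesis genes, 6 were lower, with Tat (-0.52), Sik1 (-0.66), Pck2 (-0.23) and Mpc1 (-0.21) beside these, and 4 were higher: Aqp9 (0.55) and Gpd1 (0.53), of glycerol use, Pcx (0.24) and the glucagon receptor Gcgr (0.16). Sik1 lost its call without CR replicate 4 (adjusted p up to 0.0789, limma). Mpc1 lost its call without INT replicate 6 or 7 or CR replicate 2 (adjusted p up to 0.0592, limma). Pcx lost its call without CR replicate 4 (adjusted p up to 0.0622, limma). Gcgr lost its call without INT replicate 4, 5 or 6 or CR replicate 2, 3 or 4 (adjusted p up to 0.0717, limma). Without CR replicate 4, 2 of the 21 were called higher. In the main fit 47.6% of the list was called, beside 15% of all tested genes. The enzyme genes Pck1 (-0.27, adjusted p = 0.07, limma), G6pc (-0.30, adjusted p = 0.212, limma) and Fbp1 (-0.10, adjusted p = 0.187, limma) were not called.

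Among 18 genes of glycolysis and sugar sensing, 7 were lower and 2 higher. The called share was 50%, and 37.5% in the glycogen list below, beside 15% of all tested genes. Pfkfb3, whose product speeds glycolysis, lay between 7.25 and 8.72 (median 7.64) in INT-fed and between 6.25 and 6.96 (median 6.60) in CR-fed mice, a difference of 1.15 (SE 0.21). The liver pyruvate kinase Pklr (-0.58, SE 0.11) and the glucokinase regulator Gckr (-0.48, SE 0.08) were lower, each with ranges apart, and so were Pfkfb2 (-0.46), Pdk1 (-0.45), Tkfc (-0.40), Pgk1 (-0.29) and Pfkl (-0.25). Pdp2 was the other gene called higher (0.37). Pfkl lost its call without INT replicate 4 or 6 or CR replicate 1 or 6 (adjusted p up to 0.0736, limma). Pdp2 lost its call without INT replicate 1, 3, 4, 6 or 7 or CR replicate 2, 4, 5 or 6 or C replicate 2, 4, 6 or 7 or MF replicate 1 or 7 (adjusted p up to 0.109, limma). In glycogen metabolism, 3 of 16 genes were higher, Stbd1 (0.45), the synthase Gys2 (0.39) and Phkb (0.24), and 3 lower, Ppp1r3g (-3.11), Pgm2 (-0.52) and the branching enzyme Gbe1 (-0.34). Phkb lost its call without CR replicate 4 (adjusted p up to 0.0727, limma).

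Of 36 genes of amino acid breakdown and the urea cycle, 10 were lower in INT-fed mice, 1 was higher and 25 were not called. Of all tested genes 6.62% were called lower and 8.37% higher. The lower genes included the mitochondrial ornithine carrier Slc25a15 (-0.61, SE 0.09), the arginine transporter Slc7a2 (-0.59, SE 0.09), Tat (-0.52), Cth (-0.55), and the urea cycle enzymes Cps1 (-0.32), Asl (-0.49) and Arg1 (-0.42). Slc7a2 lay between 11.24 and 11.57 (median 11.34) in INT-fed and between 11.90 and 12.03 (median 11.96) in CR-fed mice, with every INT-fed mouse under every CR-fed mouse. Bhmt, which makes methionine from homocysteine, was the gene called higher (1.22, SE 0.26) and overlapped between the diets. Their median was -0.10. In tryptophan breakdown and NAD synthesis, Acmsd (-2.14), Nnmt (-0.76) and Nampt (-0.43) were lower and Aox3 (0.93), Nmrk1 (0.76) and Kmo (0.36) higher, 6 of 23 genes, with 5 higher without C replicate 5. Nampt lost its call without INT replicate 6 or CR replicate 2 (adjusted p up to 0.058, limma).

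Drug-metabolizing genes were called often and in both directions. Of 34 P450 genes 10 were higher and 10 lower, of 37 conjugating enzymes and flavin monooxygenases 12 and 11, and of 21 organic ion and drug transporters 5 and 5. The lower P450 genes were of the Cyp2a, Cyp2b, Cyp2c and Cyp3a families, with Cyp2c39 at -1.88, Cyp2a5 at -0.60 and Cyp3a11 at -0.33 beside those named above. Higher were Cyp2c54 (1.23), Cyp2d40 (1.02), Cyp2f2 (0.67) and Cyp1a2 (0.58). Cyp2b10, a marker of the receptor CAR, lay between 3.63 and 5.52 (median 4.58) in INT-fed and between 6.91 and 8.70 (median 8.28) in CR-fed mice, with ranges apart. Its C- and MF-fed means were 5.95 and 6.88. Among conjugating enzymes, the sulfotransferase Sult5a1 (1.63) and Ugt3a1 (1.41) were higher, and the glutathione transferases Gsta4 (-0.94), Gstt3 (-0.91), Gstm3 (-0.82) and Mgst3 (-1.07) lower. Nqo1, an NRF2 target, was lower (-1.06, SE 0.24) and Cat, catalase, higher (0.15, SE 0.04), the only calls among 26 NRF2 and antioxidant genes. That was 7.69% of the list, beside 15% of all tested genes. Cat was not called after median centring or with only the 13 arrays. That list had 2 higher without CR replicate 5, 3 lower without CR replicate 1, CR replicate 3 or C replicate 5, and 2 lower without INT replicate 3, C replicate 6 or MF replicate 4. Among transporters, Slc22a7 (1.68) and Abcg2 (0.81) were higher and Abcb1a (-1.24) lower. Of 19 steroid-metabolizing enzymes, 6 were higher and 3 lower, with Hsd17b2 at 0.66, Hsd17b6 at -0.61 and Akr1c18, which stayed below an intensity of 20 in all INT-fed mice, at -0.94. The count of 6 was 3 without INT replicate 3 or CR replicate 2, 3 or 4. Hsd3b2 stood at 0.77, and its call was lost without any 1 of 18 of the 27 mice (adjusted p up to 0.113, limma).

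**Figure D4:**
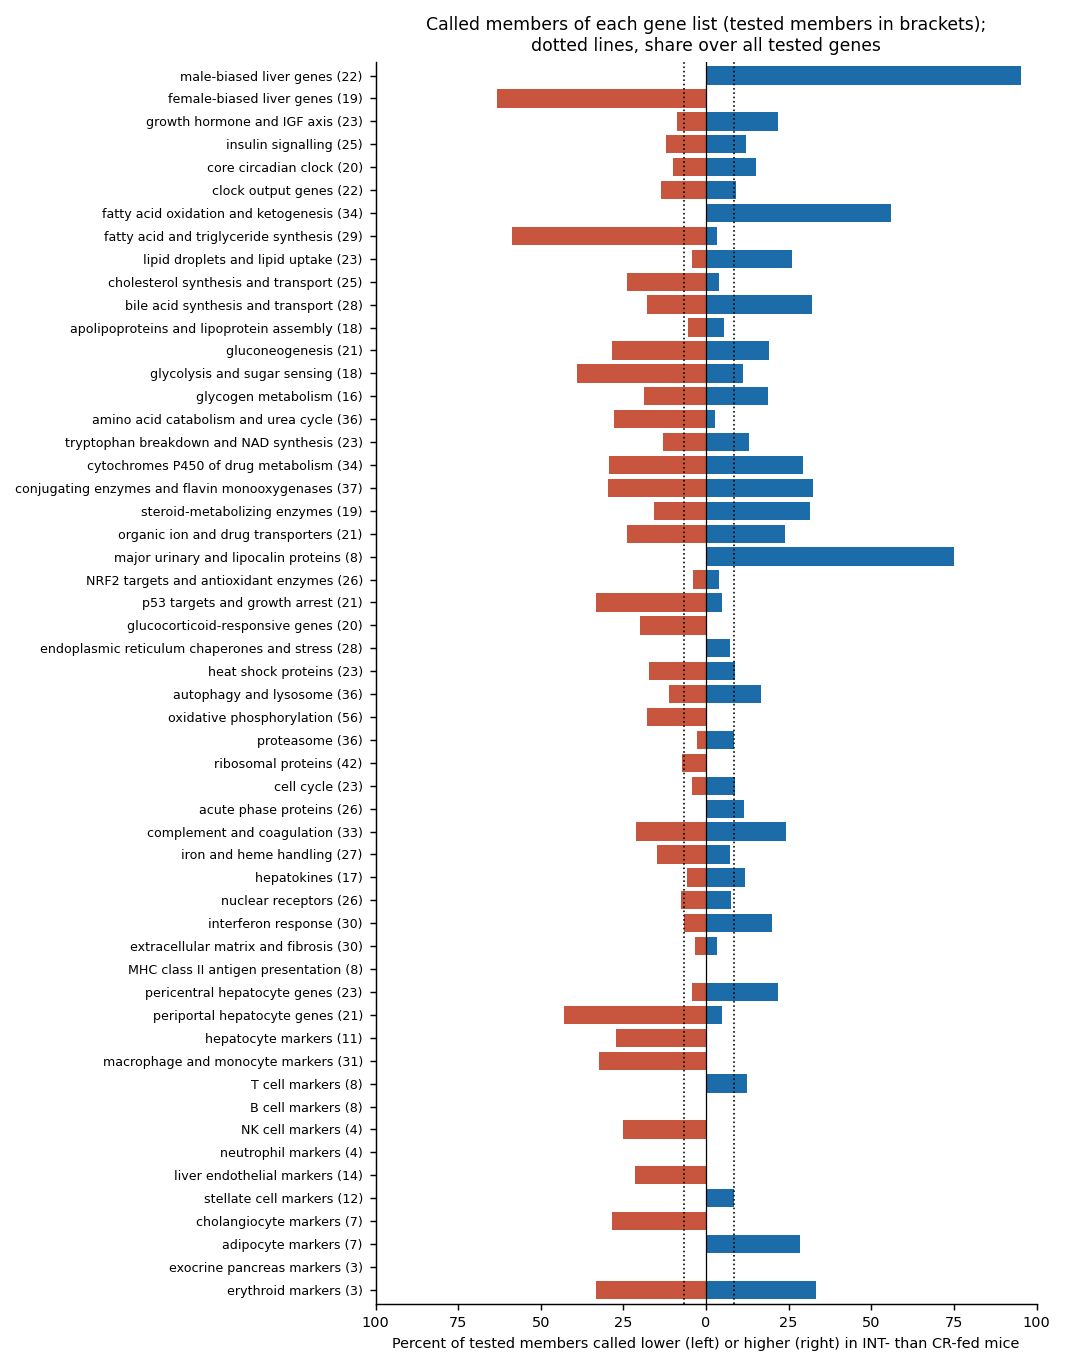
Percent of the tested members of each of 54 gene lists (y axis, number tested in brackets) called lower (bars to the left) or higher (bars to the right) in INT- than in CR-fed mice (x axis), with dotted lines at the shares of all tested genes, 6.62% and 8.37%. The male-biased, fatty acid oxidation and major urinary lists reach furthest right, and the female-biased, fatty acid synthesis and periportal lists furthest left.

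Terminal complement genes were among those with the smallest p. C6 lay between 10.52 and 11.15 (median 10.94) in INT-fed and between 8.60 and 8.91 (median 8.69) in CR-fed mice, and C8a lay between 11.33 and 11.72 (median 11.49) in INT-fed and between 9.19 and 10.18 (median 9.78) in CR-fed mice. Both lay well above all CR-fed mice, with differences of 2.14 (SE 0.19, adjusted p = 6.05e-09, limma) and 1.82 (SE 0.13, adjusted p = 1.14e-10, limma). C8b (1.35, SE 0.24) and C9 (0.91), of the same pore-forming complex, were higher, as were the clotting factor F11 (1.01) and the lectin Mbl1 (0.80). C8g, also of component C8, stood at 0.13 and was not called (adjusted p = 0.119, limma). Of 33 complement and coagulation genes, 8 were higher and 7 lower. The lower ones had small differences, from -0.15 for Cfb to -0.51 for Cfp, and their count fell to 2 without INT replicate 2 or CR replicate 6, to 3 without INT replicate 4 or CR replicate 4 or 5, and to 4 without CR replicate 3. Cfb lost its call without INT replicate 1, 2 or 3 or CR replicate 2, 4 or 6 (adjusted p up to 0.111, limma). C1qa and Cfp, which macrophages express, were 2 of these 7. C6 and C8b are also in the male-biased list.

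Inhbe, an activin subunit that the liver secretes, lay between 9.85 and 10.67 (median 10.12) in INT-fed and between 7.86 and 9.07 (median 8.31) in CR-fed mice, a difference of 1.79 (SE 0.18, adjusted p = 4.95e-08, limma). Of 17 hepatokine genes, Inhbe and Hgf (0.37, SE 0.07) were higher and Igfbp1 (-1.97) lower. Of all tested genes 15% were called, beside 17.6% of these 17. The iron and heme (22.2%), acute phase (11.5%) and interferon (26.7%) lists below lay on both sides of that share. Alas2, the heme enzyme best known from red cell precursors, lay between 9.42 and 9.75 (median 9.61) in INT-fed and between 7.73 and 8.30 (median 8.04) in CR-fed mice, a difference of 1.55 (SE 0.14). Ranges were apart in both Inhbe and Alas2. The red cell membrane gene Slc4a1 was lower (-0.54, SE 0.09), so the 3 tested erythroid markers differed in sign, and 2 were called higher without INT replicate 1, CR replicate 1 or 5, C replicate 7 or MF replicate 6. In iron and heme handling, Cpox (0.77) and Alas1 (0.33) were higher and the transferrin receptor Tfrc (-0.91), hepcidin gene Hamp2 (-1.04), Smad7 (-0.43) and Trf (-0.12) lower, among 27 genes. Alas1 lost its call without INT replicate 1 or CR replicate 2 or 5 (adjusted p up to 0.081, limma). Trf lost its call without INT replicate 6 or 7 or CR replicate 4 or 6 (adjusted p up to 0.0939, limma). Of 26 acute phase genes, Saa4 (0.71, SE 0.08), Saa3 (0.57) and Serpina3n (0.37) were higher and 0 lower, with 1 higher without CR replicate 2 and 1 lower without INT replicate 1, CR replicate 6 or MF replicate 4 or 6. Saa3 lost its call without CR replicate 2 (adjusted p up to 0.0558, limma). Serpina3n lost its call without INT replicate 1, 6 or 7 or CR replicate 2, 4 or 6 (adjusted p up to 0.0815, limma). Among 30 interferon response genes, 6 were higher, including the peptide transporter Tap1 (0.76) and Ifit1 (0.89), and 2 lower, Irf7 (-0.84) and Bst2 (-0.48). Ifit1 lost its call without CR replicate 3 (adjusted p up to 0.0623, limma).

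Clock genes were called in both directions. Arntl, which encodes the activator BMAL, lay between 4.31 and 5.68 (median 5.18) in INT-fed and between 4.74 and 7.54 (median 6.64) in CR-fed mice, a difference of -1.30 (SE 0.33), and Cry1 stood at -0.79. Higher were the repressor genes Bhlhe41 (1.21, SE 0.21) and Ciart (0.91, SE 0.26) and the PAR bZIP factor Hlf (0.45). Bhlhe41 lay between 4.88 and 5.97 (median 5.12) in INT-fed and between 3.78 and 4.50 (median 4.07) in CR-fed mice, with 5 of 6 CR-fed mice under the intensity of 20. The ranges of Bhlhe41 were apart, and those of Arntl overlapped. Ciart lost its call without CR replicate 3 (adjusted p up to 0.0562, limma). These were 5 of 20 core clock genes, beside 15% of all tested genes, and 5 were called lower without INT replicate 7. Of 22 clock output genes, Wee1 (0.44) and Alas1 (0.33) were higher and Tfrc (-0.91), Rbm3 (-0.49) and Nampt (-0.43) lower, and 5 were lower without INT replicate 1 or MF replicate 3. Wee1 lost its call without INT replicate 3, 4, 5, 6 or 7 or CR replicate 1, 3 or 4 or C replicate 1, 2, 4 or 7 or MF replicate 7 (adjusted p up to 0.148, limma). Alas1 lost its call without INT replicate 1 or CR replicate 2 or 5 (adjusted p up to 0.081, limma). Nampt lost its call without INT replicate 6 or CR replicate 2 (adjusted p up to 0.058, limma). Livers were taken within a few hours of the afternoon on several days, so these are levels in that window. The daily portion of CR-fed mice was normally given within those hours. The hour at which each mouse was killed was not used. The promoter of Ciart (chr3:95882179-95882478, minus strand, RefSeq, GRCm38.p6) is shown because it held 3 E-boxes, CACGTG, in capitals, the site that BMAL binds.
Ciart: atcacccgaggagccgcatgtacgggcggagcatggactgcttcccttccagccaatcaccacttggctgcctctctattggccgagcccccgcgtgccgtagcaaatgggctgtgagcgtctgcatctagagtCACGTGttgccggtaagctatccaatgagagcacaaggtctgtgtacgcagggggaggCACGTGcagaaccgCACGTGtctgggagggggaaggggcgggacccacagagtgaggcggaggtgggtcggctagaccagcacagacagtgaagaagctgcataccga
An E-box stood in 5 of 17 core clock genes with a promoter, in 13.2% of the genes called higher, in 11.2% of those called lower, in 11.2% of the tested genes and in 8.09% of all.

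Of the called growth arrest genes most were lower, and the stress lists differed in their share of calls, beside 15% of all tested genes. Of 21 p53 target and growth arrest genes, 7 were lower and 1 higher (Ccng1, 0.32), with a median of -0.35. Btg1, an antiproliferative gene, lay between 9.40 and 9.88 (median 9.59) in INT-fed and between 10.36 and 10.71 (median 10.51) in CR-fed mice, a difference of -0.87 (SE 0.09). Btg2 (-1.03, SE 0.29) and the mTOR inhibitor Ddit4 (-1.05, SE 0.27) were lower too. Sgk1 (-0.48), Tat (-0.52), Ddit4 and Sult1a1 (-0.25) were the 4 of 20 glucocorticoid-responsive genes called lower, with none higher. Xbp1 (0.64, SE 0.11) and Creld2 (0.79, SE 0.20), of the unfolded protein response, were the only 2 of 28 endoplasmic reticulum genes called, both higher. Heat shock genes had Dnaja1 (0.35) and Hspa4 (0.26) higher and Hspa2 (-0.94), Hspa4l (-0.35), Fkbp4 (-0.25) and Hspa9 (-0.16) lower, of 23. Fkbp4 lost its call without INT replicate 1, 2, 4, 5 or 6 or CR replicate 1, 2, 4, 5 or 6 (adjusted p up to 0.0909, limma).

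Autophagy and lysosome genes had 6 of 36 higher, led by the kinase Ulk2 (0.45, SE 0.08), and 4 lower: the protease Ctsl (-0.38, SE 0.07), Npc2 (-0.29), Ulk1 (-0.27) and Ctsd (-0.23). The counts were 3 higher without INT replicate 5 and 2 lower without INT replicate 1 or 4 or CR replicate 5 or 6. Ulk1 lost its call without INT replicate 1, 4 or 5 or CR replicate 5 or 6 (adjusted p up to 0.0641, limma). Ctsd lost its call without INT replicate 1, 2, 4, 5 or 6 or CR replicate 2, 3, 5 or 6 (adjusted p up to 0.0863, limma). Small differences were seen in oxidative phosphorylation, where 51 of 56 genes were negative and 10 were lower, with a median of -0.08 (-0.10 after median centring and -0.10 after cyclic loess). The largest were Ndufa8 (-0.32, SE 0.06), Ndufab1 (-0.24) and Atp5g1 (-0.22). Ribosomal protein genes were negative in 40 of 42, and 3 were lower: Rps28 (-0.24), Rps24 (-0.23) and Rpl35 (-0.20). These 3 and Ndufab1 and Atp5g1 have several probe sets each. Of 36 proteasome genes, Psme3 (0.26), Psmb9 (0.56) and Psmd3 (0.17) were higher and Psme1 (-0.22) lower. Psmb9 lost its call without INT replicate 1, 4, 5 or 6 or CR replicate 2, 3, 4 or 6 (adjusted p up to 0.0922, limma). Psmd3 lost its call without INT replicate 1, 2, 3, 5 or 6 or CR replicate 1, 2, 3 or 4 (adjusted p up to 0.101, limma). Psme1 lost its call without INT replicate 3, 5 or 7 or CR replicate 2, 4 or 6 (adjusted p up to 0.0788, limma). Among 23 cell cycle genes, Ccne1 (0.41) and Cdk4 (0.32) were higher and Pcna (-0.17) lower. Pcna lost its call without INT replicate 5, 6 or 7 or CR replicate 4, 5 or 6 (adjusted p up to 0.0711, limma). Nuclear receptors had Ppara (0.38) and Nr1h4 (0.36) higher and Nr4a1 (-0.62) and Rarb (-0.42) lower, of 26, with 4 higher without CR replicate 5 and 1 lower without CR replicate 2 or 6. Nr4a1 lost its call without CR replicate 2, 4 or 6 (adjusted p up to 0.0732, limma). Rarb lost its call without CR replicate 5 (adjusted p up to 0.057, limma). The only calls among 30 matrix and fibrosis genes were Ccn2 (-1.07, SE 0.19), a connective tissue growth factor, lower, and the protease Mmp2 (0.55, SE 0.15), higher. Of all tested genes 15% were called, beside 27.8% of the autophagy and 17.9% of the oxidative phosphorylation genes. The ribosomal (7.14%), proteasome (11.1%), cell cycle (13.0%), nuclear receptor (15.4%) and matrix (6.67%) lists stood near or below that share.

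Part of the genes typical of the 2 ends of the liver lobule differed. Of all tested genes 6.62% were called lower and 8.37% higher. Of 21 genes typical of hepatocytes near the portal vein, 9 were lower and 1 higher, with a median of -0.30. They averaged between 10.99 and 11.16 in INT-fed and between 11.25 and 11.37 in CR-fed mice, without overlap. Etnppl, a phospholyase, lay between 8.56 and 10.13 (median 9.41) in INT-fed and between 10.41 and 10.99 (median 10.67) in CR-fed mice, a difference of -1.26 (SE 0.26). Aldh1b1 (-0.88, SE 0.17) was lower and Cyp2f2 (0.67, SE 0.07) higher, against the rest of the list, and each kept its ranges apart. Of 23 genes typical of hepatocytes near the central vein, 5 were higher and 1 lower, with a median of 0.17: the transcription factor Tbx3 (0.85), Aldh1a1 (0.67), Cyp1a2 (0.58), Gulo (0.35) and Cyp2e1 (0.18) were higher and Cyp2a5 (-0.60) was lower. Not called were 11 portal and 17 central genes, the latter with Glul (-0.007), Oat (-0.0005), Rhbg (-0.02), Axin2 (0.23) and Lgr5 (0.36). Within replicates 1 to 4 the medians of the portal and central lists were -0.26 and 0.20, and within replicates 5 to 7 -0.28 and 0.13. Several portal genes, such as Cps1, Arg1, Asl and Hal, are also counted among amino acid genes.

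**Figure D5:**
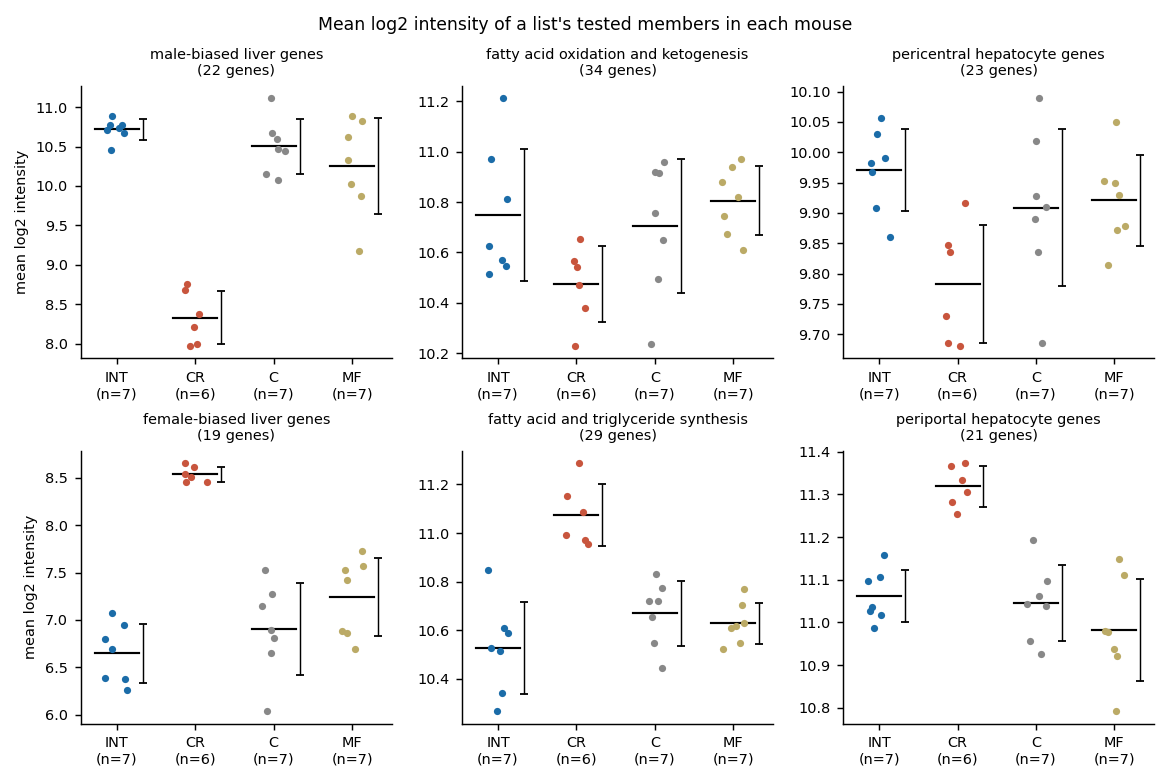
Mean log2 intensity over the tested genes of 6 lists (y axis) in every mouse by diet (x axis), where points are mice, horizontal bars means and error bars SD. INT- and CR-fed mice did not overlap in the male-biased, female-biased, fatty acid synthesis and periportal lists, and overlapped in the fatty acid oxidation and pericentral lists.

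Markers of macrophages were lower in INT-fed mice, in 10 of 31 tested genes with 0 higher and 28 negative (median -0.35). Adgre1, the F4/80 antigen gene, lay between 7.11 and 7.72 (median 7.54) in INT-fed and between 7.80 and 8.59 (median 8.14) in CR-fed mice, a difference of -0.62 (SE 0.15). The tetraspanin Cd9 (-0.60, SE 0.11), the Kupffer cell lectin Clec4f (-0.44), the growth factor receptor Csf1r (-0.51) and C1qa (-0.40) were lower as well. The list averaged 6.97 to 7.28 in INT-fed and 7.31 to 7.63 in CR-fed mice. By mean, C-fed (7.36) and MF-fed mice (7.41) lay nearer to CR (7.46) than to INT (7.15). The C and MF medians (7.31 and 7.25) lay between those of INT (7.17) and CR (7.47). Of the macrophage genes, 6 were called lower without INT replicate 1, INT replicate 7 or CR replicate 4. Their part in the differences of the other lists was not tested. Of all tested genes 6.62% were called lower and 8.37% higher. Endothelial markers had 3 of 14 lower, Dnase1l3 (-0.31, SE 0.06), Oit3 (-0.28) and Cdh5 (-0.22). Bile duct markers had 2 of 7 lower, Tspan8 (-0.37) and Krt7 (-0.35). Cdh5 lost its call without INT replicate 1, 3, 4, 6 or 7 or CR replicate 4, 5 or 6 (adjusted p up to 0.108, limma). Tspan8 lost its call without CR replicate 6 (adjusted p up to 0.065, limma). Of the cholangiocyte genes 1 was called without CR replicate 6. Cd4 was higher (0.71, SE 0.14), alone among 8 T cell markers. The NK cell protease Gzmb stood at -0.46. Gzmb lost its call without INT replicate 3, 6 or 7 or CR replicate 2, 4 or 6 (adjusted p up to 0.115, limma). Hgf was the only stellate cell marker called of 12, with 2 without INT replicate 1. Adipocyte markers had Car3 (0.64, SE 0.07) and Lipe (0.72) higher of 7, both also expressed by hepatocytes. No B cell, neutrophil, exocrine pancreas or MHC class II gene was called by limma, of 8, 4, 3 and 8. The rule for named genes gave, from limma's fit, Jchain (-0.37, adjusted p = 0.64), Camp (-0.24, adjusted p = 0.105), Cela1 (0.24, adjusted p = 0.128) and H2-Ab1 (0.31, adjusted p = 0.512). Cela1 was called without MF replicate 4 (adjusted p = 0.0475, limma).

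The mean of the C- and MF-fed mice, which ate ad libitum throughout, lay nearer to INT than to CR in 1886 of the 2039 called genes (92.5%) and in 144 of the 147 with at least 2-fold differences. It lay between the 2 diets in 1191, beyond INT in 846 and beyond CR in 2, Abhd18 and Cspg5. This comparison shares the INT- and CR-fed mice with the rule for the calls, and its share is a description. In Ppargc1a the C-fed mean was 8.35 and the MF-fed mean 7.93, beside 8.19 in INT- and 9.98 in CR-fed mice. In Acly the 4 means were 9.80, 9.66, 9.83 and 11.63 in the same order. Both genes thus had 3 diets near each other and CR apart. Hsd3b5, with 9.42, 8.05, 10.51 and 3.60, and Cyp2b9, with 8.87, 11.08, 7.98 and 12.59, had both C and MF between INT and CR, with MF nearer to CR than C. Between INT and the mean of C and MF, limma called 0 of 13603 genes (0.0%), with 1452 at an unadjusted p under 0.05. It called 1 without INT replicate 1 and 12 without MF replicate 6. For single genes, intervals not adjusted for the number of genes could be wide. The difference of Cyp2b10 was -1.77 (95% interval -2.59 to -0.96), and that of Ppargc1a 0.05 (-0.23 to 0.33). A missing call here does not show equal levels.

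The rule for named genes gave 144 genes, of which 140 were called between INT and CR and 4 were not, while 121 of the 140 kept the call whichever single mouse was left out. None of them, nor of the 306 called list members, changed direction under any alternative. Within replicates 1 to 4, 42 of the 140 were not called, within replicates 5 to 7, 81, and by Tukey's post-test after a one-way fit, 31. Of all 2039 called genes, 1733 were in no list. Genes beyond the rule were named to complete a count and were chosen after their values were seen.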

How the data were processed

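Liver RNA of 27 mice was hybridized by the study to Affymetrix Mouse Gene 1.1 ST arrays, 1 mouse per array, from 100 ng of RNA with a RIN above 8.0. The deposited table held log2 intensities that the authors had made by RMA (robust multiarray averaging: background correction, quantile normalization and probe summary), and the number of arrays limits the precision. The study's methods describe probe sets redefined by Entrez gene, whereas the deposited table carries the array maker's probe set numbers, so its probe grouping may differ from the one described. Of 35556 probe sets, 21218 named 1 gene in the platform annotation, 1881 several and 12457 none. Of the 18820 genes, 18790 had a symbol in RefSeq's GRCm38.p6 table, and for the 1386 with over 1 probe set the one of highest mean was used. Genes that exceeded an intensity of 20 on 5 or more arrays were fitted with limma (version 3.58.1, R 4.3.3; lmFit, eBayes) with 4 diet means, and p-values were adjusted by the Benjamini-Hochberg method. Tables and plots were made with matplotlib 3.10.9, pandas 2.3.3 and numpy 2.4.6 under Python 3.11.15. The fit was tested on simulated data.

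Named were, in each direction, the 15 genes of largest difference without overlap, the 5 of smallest p, and up to 3 called genes of each list or, with none called, the 1 of largest difference. Gene lists and members were chosen with earlier results of these data known. Diets came from the sample labels. Alternatives were other filters, centring, cyclic loess, other variance settings, array weights, other probe set rules, blocks, a one-way fit with Tukey's post-test (stated in the study's statistics section, not for the arrays) with adjustment over genes, subsets of arrays and leaving out each mouse. The main fit did not pair mice by replicate number. Correlations of deviations of the same-numbered INT- and CR-fed mice were 0.05, -0.05, -0.11, 0.15, 0.30 and 0.13. For replicates 4, 5 and 6 the same-numbered CR-fed mouse correlated best of all CR-fed mice, and the reason was not tested. Promoters from RefSeq (GRCm38.p6) were searched for 5 motifs, except those on chromosome 18. Identity of proteins between near-identical genes was not analysed here.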

Additional observations from a re-analysis of the deposited data

Results flagged for a closer look

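In 19 of 288 groups (6.60%), each a named gene within 1 diet, the highest or lowest mouse stood apart from the others by Dixon's test at the 95% level, which chance alone gives in about 1 in 20 groups. INT replicate 3 was set apart in 4 genes. It was high in Fasn (11.74, next mouse 11.00), Sytl5 (6.06, next 4.95) and Stbd1 (7.61, next 7.26), and low in Ciart (8.43, next 8.79). INT replicate 5 was high in Ifit1 (8.46, next 7.28) and Pgm2 (7.28, next 6.97) and low in Rps24 (9.28, next 9.42). Hsd3b5 was low in INT replicate 1 (8.67, next 10.21) and Irs2 low in INT replicate 4 (6.91, next 7.36). Pfkfb3 was high in INT replicate 2 (8.72, next 7.82) and Cux2 high in INT replicate 6 (4.93, next 4.68).

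Among CR-fed mice, replicate 1 was low in Nipal1 (8.29, next 8.88) and Xbp1 (10.57, next 10.83), and replicate 3 low in Irf7 (8.31, next 9.21). Replicate 4 was low in Rbm3 (10.53, next 10.79) and high in Trf (13.58, next 13.48). Replicate 5 was low in Krt7 (5.15, next 5.30), and replicate 6 high in Cps1 (13.16, next 13.10) and Tspan8 (4.86, next 4.48).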

How the results depend on the processing

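Beside the 2039 genes called between INT and CR stood 1038 within replicates 1 to 4 (627 higher, 411 lower), 347 within replicates 5 to 7 (148 higher, 199 lower) and 1055 by Tukey's post-test after a one-way fit (608 higher, 447 lower, with 2264 at an unadjusted Tukey p under 0.05). The first 2 used fewer arrays. The third used each gene's own variance and adjusted for all pairs of diets before the adjustment over genes, and the part of each step was not tested. The count was 1853 without the intensity minimum, 2444 with array weights, 2068 with the 13 arrays alone and 2143 with the array set as a block (1160 higher, 983 lower). Centring turned the split from 1138 higher and 901 lower to 982 and 1080, and cyclic loess to 1052 and 1046. The main fit did not pair the mice by number. A replicate block gave 2079 calls (1117 higher, 962 lower), and a block of mouse numbers 1882. Leaving out 1 mouse gave between 1674 (CR replicate 4) and 2175 (MF replicate 4) calls, with 934 to 1210 higher and 710 to 968 lower. Between INT and the mean of C and MF the count of 0 was between 0 and 12 when 1 mouse was left out (1 without INT replicate 1 and 12 without MF replicate 6). Of the 140 called named genes, 54 kept the call under every alternative that gave them a value, at most 43, 86 lost it under at least 1 and 0 changed direction. Values under the intensity of 20 limit the size of a difference, in the 43 called genes with a diet mean below it.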
